A study of Mus musculus with 56 samples.

Results

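The genes of the constitutive proteasome were followed in the prefrontal cortex of 56 C57BL/6J mice. Members were taken by symbol: every row of the deposited table named Psma, Psmb, Psmc or Psmd with a number, or Psme1 to Psme4, except the 3 immunoproteasome subunits Psmb8, Psmb9 and Psmb10. The rule took 40 of 18088 genes. By known role they were 7 alpha ring and 7 beta ring genes of the core particle, 6 ATPase and 11 non-ATPase genes of the regulatory particle, 4 activator genes (Psme1 to Psme4) and 2 genes known from testis and thymus (Psma8 and Psmb11). The other 3, Psmd5, Psmd9 and Psmd10, carry subunit symbols but encode chaperones that help to assemble the base of the regulatory particle. The rule used no measured value. In the text below, "subunits" are the 31 core and regulatory particle genes.

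The mice were heterozygous for Scn2a (HT), a voltage-gated sodium channel gene of neurons, or wild type (WT), of both sexes, and had taken in fluoxetine, lithium or vehicle with the dam's milk for 3 weeks, from day 3 to day 24 after birth. Fluoxetine is a serotonin reuptake inhibitor, and lithium is a mood stabiliser. Tissue was collected at the age of 25 days. There were 9 libraries each of WT vehicle, WT fluoxetine, WT lithium and HT fluoxetine and 10 each of HT vehicle and HT lithium, 4 or 5 per sex. Neither dams nor litters are identified in the labels, and pups of a treatment group that shared a dam would make the p-values of drug effects too small.

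The proteasome degrades proteins that carry ubiquitin chains. Its core particle is a barrel of stacked alpha and beta rings, and the active sites lie inside it on the beta ring subunits encoded by Psmb5 (chymotrypsin-like), Psmb6 (caspase-like) and Psmb7 (trypsin-like). The regulatory particle binds the ubiquitin chain, removes it and, through a ring of ATPases, unfolds the substrate and feeds it into the core. In neurons the proteasome is known for its part in synaptic protein turnover, and a transcription factor, Nfe2l1, raises many subunit genes together when proteasome activity is short.

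The libraries held 24.3 to 36.4 M assigned reads (median 27.9 M). Values are read counts divided by the library's size factor ("value" below). Scn2a was lower in HT than in WT under vehicle by 0.53 on the log2 scale (adjusted p = 4.6e-15, limma), and its ranges of 7798 to 8772 and 9728 to 13381 did not overlap. All 9 lists of cell type and region markers were detected, and no marker was at 0 in every library. However, 1 striatal marker had a mean value below 10. Among the lists were cortical excitatory neurons, whose 6 markers summed to 55807 to 74520 per library. Markers of olfactory bulb or striatum, regions next to the prefrontal cortex, lay more than 1 log2 unit above the median of all libraries in 20 of them. In bulk tissue, fewer cells of a type and less RNA per cell cannot be told apart.

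The genes that the results turn on are shown here with their upstream sequence. Psmb5 (ENSMUSG00000022193) lies on chromosome 14 from 54614119 to 54618022, minus strand. Psmb4 (ENSMUSG00000005779) lies on chromosome 3 from 94884093 to 94886961, minus strand, and Psmb6 (ENSMUSG00000018286) on chromosome 11 from 70525367 to 70527858, plus strand. These 3 beta ring genes had the smallest p-values of the members for lithium in HT, and Psmc4, an ATPase gene (ENSMUSG00000030603, chromosome 7, 28041707 to 28050101, minus strand), is set beside them because its log2 difference there was 0.00. The windows run from 250 to 51 bases before the RefSeq start site on GRCm38.p6, at chr14:54618046-54618245 (minus), chr3:94887009-94887208 (minus), chr11:70525107-70525306 (plus) and chr7:28050143-28050342 (minus), outside the exons of annotated genes. Capitals mark GGGCGG or its complement CCGCCC.

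Psmb5: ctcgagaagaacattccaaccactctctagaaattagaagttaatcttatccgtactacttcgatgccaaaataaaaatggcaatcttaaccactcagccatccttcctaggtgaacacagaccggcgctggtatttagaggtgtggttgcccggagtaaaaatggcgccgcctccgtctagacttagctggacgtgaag
Psmb4: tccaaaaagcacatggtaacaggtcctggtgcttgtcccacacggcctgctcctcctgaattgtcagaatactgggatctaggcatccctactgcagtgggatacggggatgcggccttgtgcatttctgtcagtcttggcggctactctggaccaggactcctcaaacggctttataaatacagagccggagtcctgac
Psmb6: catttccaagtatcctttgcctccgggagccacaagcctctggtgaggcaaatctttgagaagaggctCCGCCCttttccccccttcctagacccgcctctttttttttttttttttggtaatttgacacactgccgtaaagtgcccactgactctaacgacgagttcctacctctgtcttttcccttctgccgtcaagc
Psmc4: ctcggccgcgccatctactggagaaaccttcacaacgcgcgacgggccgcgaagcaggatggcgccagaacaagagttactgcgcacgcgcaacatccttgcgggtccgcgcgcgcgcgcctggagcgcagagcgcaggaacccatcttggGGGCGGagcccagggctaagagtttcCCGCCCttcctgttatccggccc

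Of the 40 members, 33 had a window in the RefSeq table, and 3 motifs that do not overlap each other were searched on both strands. GGGCGG, a GC box, was in 17 of the 33 windows (51.5%) and in 24.6% of all 32851 windows of the same length. CCAAT was in 10 of 33 (30.3%, against 28.4% of all). TGACNNNGC, the core of the element through which Nfe2l1 is known to act, was in 2 of 33 (6.06%, against 7.66%), those of Psmc6 and Psmd12. Of the 4 windows printed, that of Psmb6 held 1 GC box and that of Psmc4 held 2, and none held either other motif.

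All subunit genes were well expressed, at levels that differed 4.24-fold between the highest and the lowest per length. In the 9 WT vehicle libraries the median of the 31 subunits was 1457 normalised reads per kb of annotated transcript. Psmc5, an ATPase gene, stood highest at 2439 ± 144 (SD, n = 9), followed by Psmb6 (2264 ± 175), Psma7 (2264 ± 110), Psmc3 (2165 ± 112) and Psmb7 (2148 ± 37.0), and these 4 lay within 1 SD of their neighbours among them. Psmd11, a lid gene, was lowest at 575 ± 9.72, below Psma2 (657 ± 12.9) and Psma3 (668 ± 19.9), which did not differ beyond their SD. The place of Psmd11 depends on the transcript: with the shorter of its principal transcripts it was 1007 per kb, which leaves Psma2 as the lowest.

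By class, the median per kb was 1731 in the beta ring, 1584 in the ATPases, 1457 in the alpha ring and 1116 in the non-ATPases. Activators stood lower (median 445). Among them Psme3, which forms a nuclear activator ring, reached 1027 ± 24.9, while Psme1 and Psme2, whose products form the interferon-inducible activator together, were at 596 ± 63.5 and 281 ± 20.7, and Psme4, a large single-chain activator, at 295 ± 10.2. The 3 assembly chaperones had a median of 240. Psma8 (values of 0 to 14.4 across all libraries) and Psmb11 (0 to 12.2) were at trace level, and Psmb11 did not pass the filter on low values, which left 39 members tested.

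**Figure D1:**
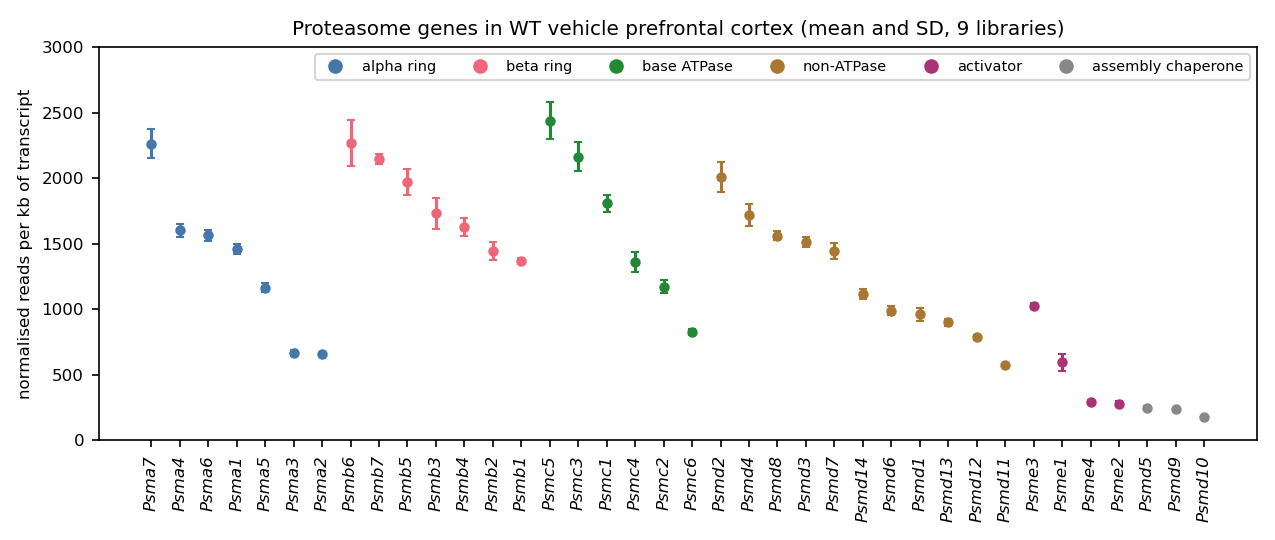
Normalised reads per kb of annotated transcript (y axis) of each member (x axis) except Psma8 and Psmb11, in WT vehicle libraries. Points are means and bars SD over 9 libraries, coloured by class; Psmc5 at 2439 is highest, and activators other than Psme3 and the chaperones lie below 600.

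Across all 56 libraries the values of a subunit varied little. The coefficient of variation ran from 2.65% (Psma1) to 9.13% (Psmb3), with a median of 4.33%. The beta ring varied most among the subunit classes (median 5.77%) and the alpha ring least (3.36%).

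With limma, 4 core particle genes, 1 regulatory particle gene and 1 activator gene were called lower under lithium in HT mice. Of the 39 members tested, 6 passed the test (adjusted p below 0.05, limma), all lower, which is 15.4% of the members; over all genes tested 8.77% were called, and 4.13% were called as lower. Called were 3 beta ring genes, Psmb5, Psmb4 and Psmb6, with 1 alpha ring gene (Psma7), 1 lid gene (Psmd13) and 1 activator gene (Psme1). Of the 14 core particle genes, 14 had lower values (median log2 change -0.06, 4 called), and of the 17 regulatory particle genes 14 had (median -0.03, 1 called). The median over all genes was 0.00.

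Psmb5 had the largest decrease of the members. Its values in HT vehicle were 1629, 1708, 1836, 1953 and 1865 in females and 1796, 1693, 1773, 1924 and 1778 in males. Under lithium they were 1564, 1649, 1642, 1389 and 1538 in females and 1558, 1380, 1381, 1499 and 1658 in males. HT vehicle female 1 was the lowest control and the only one within the lithium range. The mean fell from 1795 ± 103 (SD, n = 10) to 1526 ± 111 (n = 10), a log2 change of -0.24 ± 0.042 (SE) or -15.1% (adjusted p = 0.00036, limma), and 10 of 10 lithium libraries lay under the vehicle mean of their sex.

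Psmb4, a beta ring gene without an active site, ranged from 1924 to 2096 (median 1993) in HT vehicle and from 1664 to 1937 (median 1798) in HT lithium. Only the highest lithium library, HT lithium male 5, reached the vehicle range. The log2 change was -0.14 ± 0.031 (SE), or -9.1% (adjusted p = 0.0033, limma; 10 of 10 lower).

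Psmb6 ranged from 1632 to 2099 (median 1866) in HT vehicle and from 1485 to 1819 (median 1658) in HT lithium. The groups overlapped more than for Psmb5, with HT vehicle male 5 the lowest control. Its log2 change was -0.18 ± 0.046 (SE), or -11.7% (adjusted p = 0.0095, limma; 10 of 10 lower).

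Psmb7, the gene of the remaining catalytic subunit, was the most abundant of the 3 and did not pass the test. Values were 2413 to 2710 (median 2562) in HT vehicle and 2369 to 2573 (median 2472) in HT lithium, a log2 difference of -0.05 (95% interval -0.09 to -0.01, adjusted p = 0.13, limma).

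**Figure D2:**
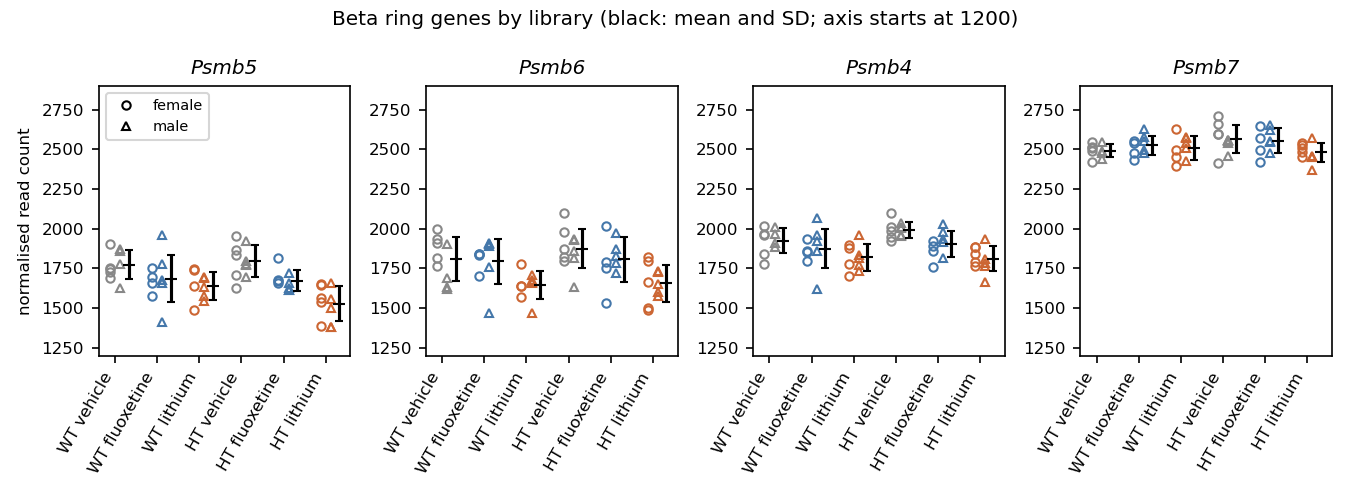
Values (normalised read counts, y axis from 1200) of Psmb5, Psmb6, Psmb4 and Psmb7 in each library by genotype and treatment (x axis). Circles are females and triangles males, with the mean and SD in black; Psmb5 in HT lithium lies at 1380 to 1658, and of the HT vehicle libraries only female 1 (1629) falls in that range.

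The other 3 called members changed less firmly. Psme1 ranged from 665 to 795 (median 725) in HT vehicle and from 597 to 737 (median 630) in HT lithium (log2 change -0.17 ± 0.051 SE, adjusted p = 0.030, limma; 9 of 10 lower). Psma7 ranged from 1952 to 2282 (median 2105) and from 1721 to 2082 (median 1908), with a log2 change of -0.13 ± 0.043 (SE, adjusted p = 0.040; 10 of 10 lower). For Psmd13 the ranges were 1625 to 2025 (median 1847) and 1635 to 1817 (median 1754), the second inside the first (log2 change -0.09 ± 0.028 SE, adjusted p = 0.031; 10 of 10 lower). Each of these 3 calls was lost on leaving out certain libraries singly: in 7 of 56 omissions for Psme1 and for Psmd13 and in 13 for Psma7, and for all 3 without HT lithium female 5, HT vehicle female 4 or HT vehicle female 5. All these losses came from omitting HT lithium or HT vehicle libraries, 10 of each. The other omissions changed only the shared estimate of the spread. With only the groups compared in the fit, Psmd13 was not called (adjusted p = 0.10, limma). The calls of Psmb5, Psmb4 and Psmb6 were kept in 56 of 56 omissions.

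Among members that missed the threshold, Psma6 (log2 -0.06, adjusted p = 0.052), Psmb1 (-0.05, adjusted p = 0.056), the lid gene Psmd7 (-0.08, adjusted p = 0.063) and the chaperone gene Psmd10 (-0.11, adjusted p = 0.063) came nearest. The beta ring had a median of -0.12 with 7 of 7 genes lower, the alpha ring one of -0.06 with 7 of 7 lower. The ATPases, which drive unfolding, had a median of -0.03 with 5 of 6 lower and 0 called, and ranged from -0.06 (Psmc5) to 0.00 (Psmc4). Psmc4 was at 1828 to 2224 (median 2013) in HT vehicle and 1881 to 2177 (median 2027) in HT lithium, ranges that lay nearly on top of each other. The large activator gene Psme4 had a higher value under lithium (0.05, adjusted p = 0.17). In females and males the difference for Psmb5 was -0.21 and -0.26, for Psmb4 -0.12 and -0.15, and for Psmb6 -0.21 and -0.14.

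The decrease under lithium in HT tended to be larger for genes with shorter transcripts. Across the 31 subunits the correlation of the signed log2 change with log2 length was r = 0.67, given as a description, since all points come from the same libraries. The 6 called members had transcripts of 798 to 1989 bases (median 1013) and the 33 others of 766 to 6491 (median 1591). Each library was also given a slope of expression on log2 length over 13663 genes, in log2 units per SD of log2 length. It averaged -0.020 ± 0.017 (SD, n = 10) in HT vehicle, 0.017 ± 0.021 (n = 10) in HT lithium, 0.017 ± 0.020 (n = 9) in WT lithium and -0.0004 ± 0.011 (n = 9) in WT vehicle.

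With slopes on length and GC content in the fit as covariates, 0 members were called for lithium in HT. The shares of all genes called in this fit and in the refits below are not given here. The median of the 39 was then -0.006 in place of -0.047, and the log2 change of Psmb5 was -0.17 (adjusted p = 0.078, limma). That of Psmb4 was -0.07 (adjusted p = 0.37), of Psmb6 -0.06 (adjusted p = 0.52) and of Psma7 -0.007 (adjusted p = 0.96). Without the 20 libraries with high olfactory or striatal marker scores, 2 members were called, Psmb5 (-0.24, adjusted p = 0.021, limma) and Psmd13 (-0.12, adjusted p = 0.026). The values of Psmb4 (-0.12) and Psmb6 (-0.18) were then close to those with all libraries, but neither was called (adjusted p = 0.086 for each, limma). Nor were Psma7 (adjusted p = 0.084) and Psme1 (adjusted p = 0.21). Left out singly, HT lithium female 5, HT vehicle female 4 and HT vehicle female 5 each brought the count to 3, and HT vehicle female 1 brought it to 13.

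**Figure D3:**
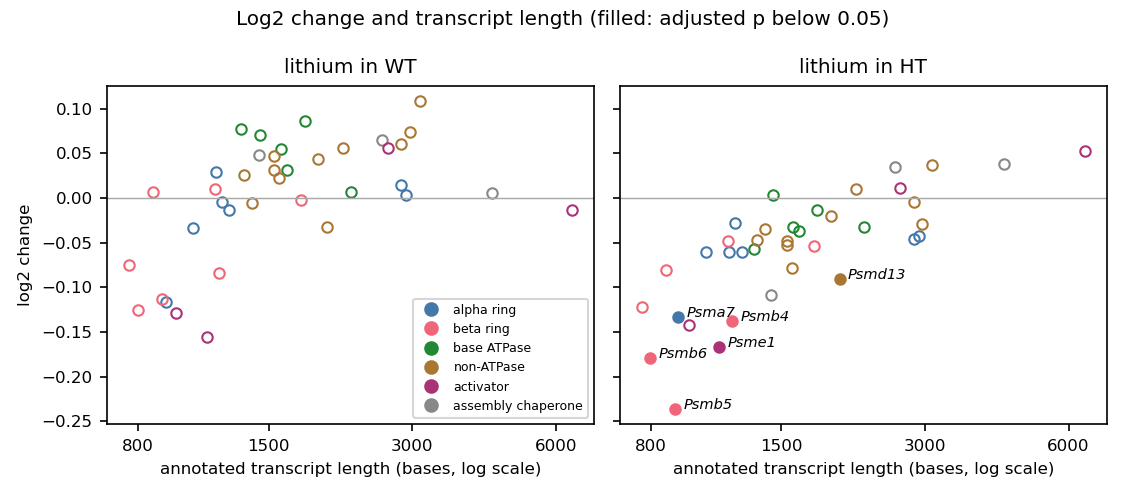
Log2 change under lithium (y axis) against annotated transcript length (x axis, log scale) in WT (left) and HT (right), 1 point per member except Psma8 and Psmb11, coloured by class and filled where adjusted p was below 0.05. In HT the called genes lie between 798 and 1989 bases, and r over the 31 subunits was 0.65 in WT and 0.67 in HT.

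Cell type markers differed between HT lithium and HT vehicle as well. Of 7 microglial markers 7 were lower (median -0.08, summed value 8456 to 9902 against 8654 to 11167), of 7 astrocyte markers 6 (median -0.08), and of 4 endothelial markers 3 (median -0.20, summed value 3361 to 4411 against 3466 to 5020). Of 6 excitatory neuron markers 4 were lower (median -0.02), of 6 interneuron markers 4 (median -0.03) and of 6 oligodendrocyte markers 5 (median -0.07). Striatal markers were lower in 9 of 14 (median -0.05). The other way went 2 of 2 precursor markers (median 0.05) and 11 of 16 olfactory markers (median 0.02), which were higher. No marker was at 0 in every library. The part of these differences in the lower proteasome values was not tested.

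In WT mice lithium called 0 of 39 members, against 5.71% of all genes tested. Unadjusted, 12 were below 0.05, as were 3810 of the 17778 genes tested. On recovered reads edgeR called 0, and DESeq2 called 3, Psmc2, Psmd1 and Psme1. With slopes on length and GC content as covariates 3 were called, Psmc2, Psmc5 and Psmd3. For these alternatives the share of all genes called is not given here. Without WT vehicle female 1 the count was 3, and it was 0 or 1 without any other library. The smallest p belonged to Psmc2, an ATPase gene, at 1943 to 2241 (median 2094) in WT vehicle and 2084 to 2321 (median 2224) in WT lithium, a log2 difference of 0.09 (adjusted p = 0.052, limma; higher in 9 of 9).

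None of the classes had a called gene in WT. The regulatory particle had a median of 0.05, with 15 of 17 genes higher and 6 of 6 ATPase genes among them. Psmd1, the largest scaffold of the base, was at 0.11 (adjusted p = 0.065). The core particle had 5 of 14 genes higher and 9 lower (median -0.01), and the beta ring had a median of -0.08 with 5 of 7 lower. The core was not tested against the regulatory particle. Psmb5 was at 1626 to 1903 (median 1755) in vehicle and 1486 to 1747 (median 1640) in lithium, a log2 difference of -0.11 (95% interval -0.20 to -0.02, adjusted p = 0.11, limma). Psmb6 differed by -0.13 (interval -0.22 to -0.03, adjusted p = 0.11), Psmb4 by -0.08 (adjusted p = 0.11) and Psmb7 by 0.01 (interval -0.03 to 0.05, adjusted p = 0.83).

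The activators Psme1 (-0.16, adjusted p = 0.072) and Psme2 (-0.13, adjusted p = 0.17) had the lowest values apart from the trace-level Psma8. Length went with the difference in WT too, with r = 0.65 over the 31 subunits. In WT lithium 16 of 16 olfactory markers were lower and 14 of 14 striatal markers higher than in WT vehicle (medians -0.43 and 0.24), and 7 of 7 microglial markers were lower (median -0.16). Of the excitatory neuron markers 5 of 6 were higher (median 0.14, summed value 63079 to 71729 against 55807 to 69936), and of the astrocyte markers 6 of 7 were lower (median -0.07). Their part in these values was not tested.

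The difference between the genotypes in the lithium response was tested as an interaction. It called 0 of 39 members and 0% of all genes, with 0 members called by edgeR or DESeq2. Unadjusted, 10 members were below 0.05, as were 1934 of the 17778 genes tested. The subunits lay on 1 side: 31 of 31 had a lower value (all 39 members: 36 lower, median -0.06, against -0.01 over all genes). Psma4 had the smallest p (-0.09 ± 0.031 SE, adjusted p = 0.29), and Psmb5 was at -0.12 (95% interval -0.24 to -0.001, adjusted p = 0.46). The values for Psmb6 and Psmb7 were -0.05 and -0.06. This contrast contains the HT vehicle libraries, whose mean over the 31 subunits was 0.048 on the log2 scale relative to WT vehicle.

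**Figure D4:**
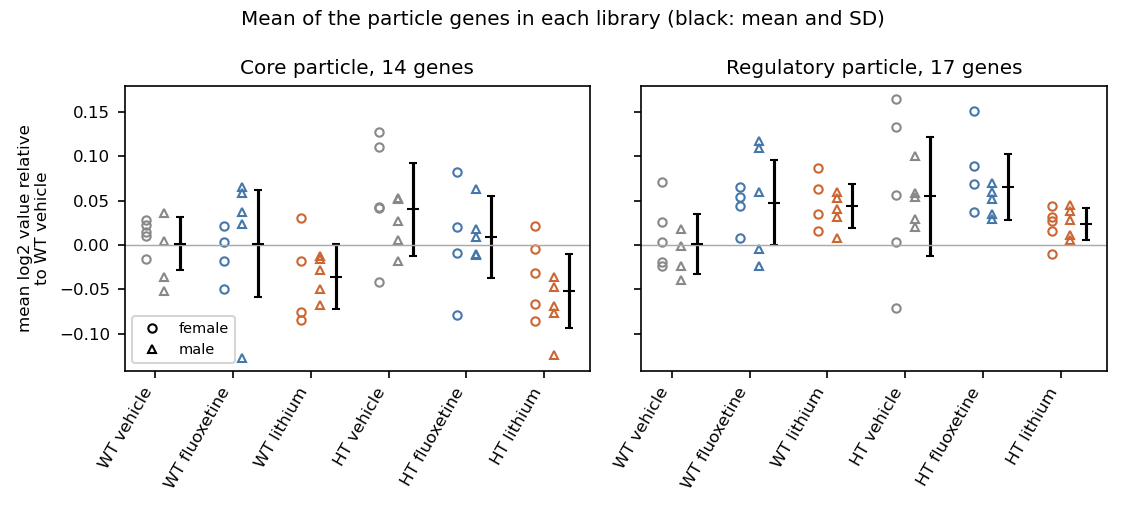
Mean log2 value of the 14 core particle genes (left) and 17 regulatory particle genes (right) in each library, relative to the WT vehicle libraries (y axis), by genotype and treatment (x axis). Circles are females, triangles males, black marks the mean and SD; the core mean runs from 0.040 in HT vehicle to -0.052 in HT lithium, and single libraries of HT vehicle spread from -0.042 to 0.127.

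Under vehicle, HT mice had slightly higher values than WT in 37 of 39 members (median 0.05) and in 31 of 31 subunits, while 51.6% of all genes were higher. None was called: 0 of 39, against 0.00562% of all genes, which is Scn2a alone. Unadjusted, 16 members were below 0.05, as were 1765 of the 17778 genes tested. Both edgeR and DESeq2 called 0 members. Psma4 had the smallest p, at 1779 to 1957 (median 1857) in WT and 1849 to 2065 (median 1951) in HT, a log2 difference of 0.07 ± 0.022 (SE, adjusted p = 0.25, limma). The catalytic genes differed by 0.02 (Psmb5), 0.06 (Psmb6) and 0.04 (Psmb7). Psme4 was the exception among well expressed members, at -0.07 (adjusted p = 0.32).

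The mean of the core particle genes was 0.040 ± 0.052 (SD, n = 10) in HT vehicle and 0.001 ± 0.030 (n = 9) in WT vehicle, and that of the regulatory particle genes 0.055 ± 0.067 and 0.001 ± 0.034. In the regulatory mean the HT vehicle libraries were the most spread of the 6 conditions. HT vehicle female 5 and female 4 were the highest of the group in both means (regulatory 0.165 and 0.133), and HT vehicle female 1 the lowest (core -0.042, regulatory -0.071). With slopes on length and GC content as covariates the median genotype difference was 0.026. Striatal markers were higher in HT vehicle than in WT vehicle in 13 of 14 (median 0.21, summed value 7114 to 29731 against 6909 to 13414), olfactory markers in 13 of 16 (median 0.09) and excitatory neuron markers in 5 of 6 (median 0.06), while 4 of 4 endothelial markers were lower (median -0.10). Their part in the subunit values was not tested.

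Under fluoxetine the genotypes differed in 0 of 39 members, against 0.0112% of all genes, with a median of 0.02. Below 0.05 unadjusted were 2 members and 700 of the 17778 genes tested, and edgeR and DESeq2 called 0 members. The smallest p was that of Psmd11 (0.06 ± 0.024 SE, adjusted p = 1.0), and Psmb5, Psmb6 and Psmb7 were at -0.003, 0.007 and 0.02. Under lithium the values pointed the other way, 29 of 39 lower in HT (median -0.01). Again 0 were called, against 0.0337% of all genes, and edgeR and DESeq2 called 0 members. Unadjusted, 3 members and 1832 of the 17778 genes were below 0.05. The smallest p there was that of Psmb5 (-0.11 ± 0.043 SE, adjusted p = 0.40), lower in 9 of 10 HT libraries, while Psmb6 and Psmb7 were at 0.008 and -0.02.

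Fluoxetine called 0 of 39 members in WT, against 0.146% of all genes, and 0 of 39 in HT, against 0.045%. Unadjusted, 10 and 3 members were below 0.05, as were 1929 and 1521 of the 17778 genes tested. Both edgeR and DESeq2 called 0 members in either genotype. In WT the regulatory particle had a median of 0.04 with 15 of 17 genes higher. The ATPase gene Psmc1 (0.08 ± 0.029 SE, adjusted p = 0.21), the activator gene Psme3 (0.07, adjusted p = 0.21) and Psmd14, the deubiquitinase of the lid (0.08, adjusted p = 0.26), had the smallest p-values. The core particle had a median of 0.01. Psmb5 was at 1415 to 1961 (median 1676), a log2 difference of -0.08 (95% interval -0.17 to 0.01, adjusted p = 0.54), and Psmb6 and Psmb7 were at -0.002 and 0.02.

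In HT under fluoxetine 7 of 7 beta ring genes were lower (median -0.06) and 6 of 6 ATPase genes higher (median 0.02). Psmd12, a lid gene, had the smallest p (0.07 ± 0.024 SE, adjusted p = 0.48, higher in 9 of 9). Psmb5 was at 1613 to 1817 (median 1660), a difference of -0.10 (95% interval -0.18 to -0.01, adjusted p = 0.56), Psmb6 at -0.06 and Psmb7 at -0.007. The interaction of fluoxetine with genotype called 0 of 39 members and 0% of all genes (0 members by edgeR or DESeq2). Unadjusted, 3 members and 967 of the 17778 genes were below 0.05. Among the members, the smallest p of the interaction was that of Psmb2 (-0.14 ± 0.052 SE, adjusted p = 0.81). Psmb5, Psmb6 and Psmb7 were at -0.02, -0.05 and -0.03. Lithium and fluoxetine share the vehicle libraries in each genotype, so their differences are not independent.

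**Figure D5:**
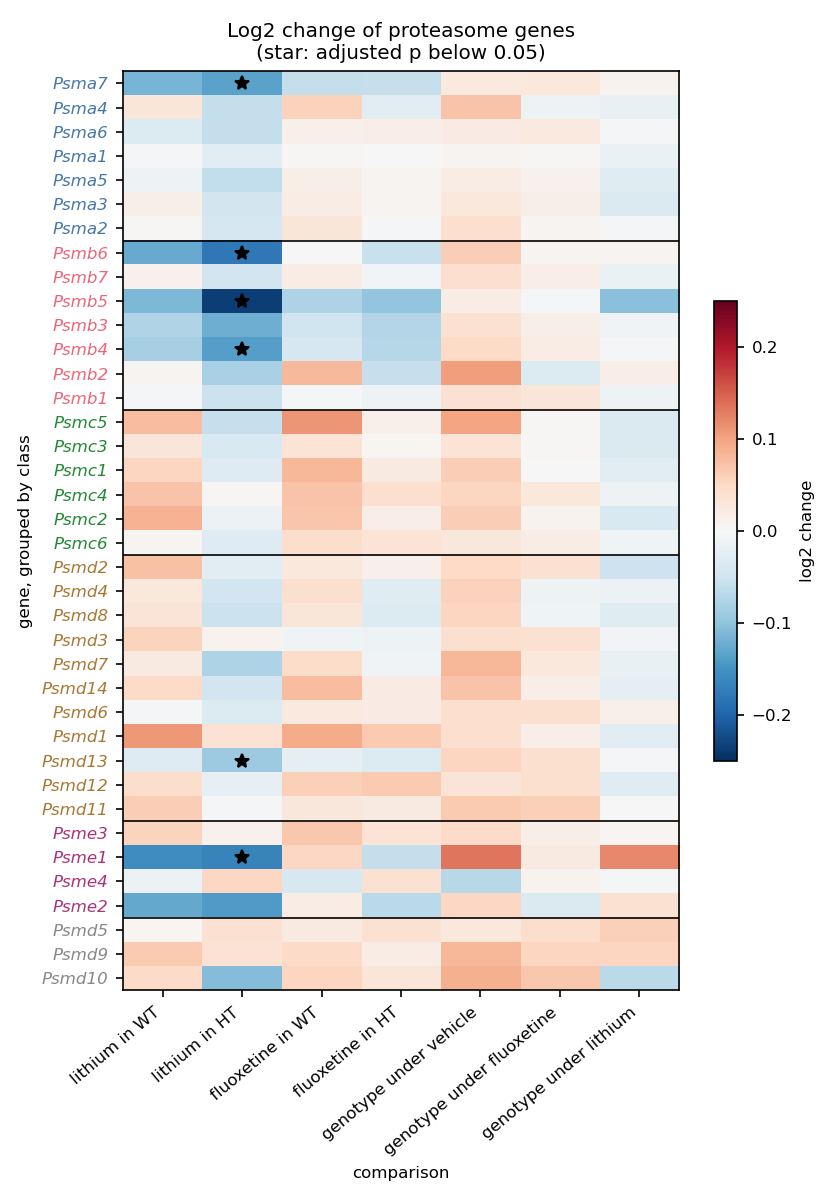
Log2 change (colour) of each member except Psma8 and Psmb11 (rows, grouped by class) in 7 comparisons (columns). Stars mark adjusted p below 0.05, and the 6 stars all stand in the column for lithium in HT.

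A direct comparison of the drugs leaves the vehicle libraries out of the difference, but they still entered the shared estimate of the spread. In WT it called 1 of 39 members, Psme1, lower under lithium than under fluoxetine (1.05% of all genes were called, 0.321% as lower). Its values were 598 to 782 (median 698) under fluoxetine and 517 to 640 (median 606) under lithium, so that the ranges overlapped. The log2 change was -0.21 ± 0.054 (SE), or -13.4% (adjusted p = 0.041, limma), lower in 9 of 9. The call was lost on leaving out any of 8 libraries (WT fluoxetine female 2, female 4, male 1 or male 4, or WT lithium female 2, female 3, male 3 or male 5), with an adjusted p of at most 0.12. With only the groups compared in the fit the call was lost as well (adjusted p = 0.074, limma). It was also lost with tissue scores as covariates (-0.16, adjusted p = 0.14, limma). Of the olfactory markers 16 of 16 were lower under lithium (median -0.55), and of the striatal ones 14 of 14 were higher (median 0.30). Psmb5, Psmb6 and Psmb7 were at -0.04, -0.12 and -0.01, none called.

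In HT the drugs differed in 0 of 39 members, against 1.0% of all genes, with 0 called by edgeR and 2 by DESeq2 (Psma6 and Psmd12). Unadjusted, 14 members were below 0.05, as were 2616 of the 17778 genes tested. The subunits were lower under lithium in 14 of 14 core particle genes (median -0.05) and 16 of 17 regulatory particle genes (median -0.04). Psma6 had the smallest p (-0.08 ± 0.021 SE, adjusted p = 0.060), and Psmb5 was at -0.14 ± 0.043 (SE, adjusted p = 0.099), lower in 9 of 10, with Psmb6 at -0.12 and Psmb7 at -0.04.

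The lithium and fluoxetine effects in females were compared with those in males in each genotype. These 4 tests called 0 of 39 members and 0% of all genes. Below 0.05 unadjusted were 0, 0, 2 and 0 members for lithium in WT, lithium in HT, fluoxetine in WT and fluoxetine in HT. Of the 17778 genes tested, 1172, 481, 852 and 1061 were, in the same order. edgeR and DESeq2 called 0 in all 4. Female minus male, the difference of the drug effects ran from -0.002 to 0.06 for Psmb5, from -0.13 to -0.07 for Psmb6 and from -0.05 to -0.01 for Psmb7.

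Genes that act with the proteasome were taken from a list of 33, of which 33 were tested. For lithium in HT 4 were called (12.1%, against 8.77% of all genes), 3 of them lower (4.13% of all genes were called as lower). Among these, Pomp, the chaperone that matures the core particle, fell (-0.06 ± 0.019 SE, adjusted p = 0.028, limma; 1599 ± 36.6 to 1530 ± 55.2, SD, n = 10 each), as did Sem1, a small lid subunit under another symbol (-0.15, adjusted p = 0.046; 860 ± 67.0 to 776 ± 59.8). Ddi2, the protease that activates Nfe2l1, rose (0.12 ± 0.034 SE, adjusted p = 0.021; 2182 ± 152 to 2365 ± 112). Nfe2l1 itself was at 0.01 (adjusted p = 0.91).

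For lithium in WT 6 of the 33 were called (18.2%, against 5.71% of all genes). Of the 6, 5 were higher, while 682 of the 17778 genes tested were called higher. The higher ones included the ubiquitin-activating enzyme Uba1 (0.08 ± 0.022 SE, adjusted p = 0.028, limma), the shuttle Ubqln1 (0.10, adjusted p = 0.0067), the unfoldase Vcp (0.08, adjusted p = 0.013) and Nfe2l1 (0.08, adjusted p = 0.039). Values of Ubqln1 did not overlap between WT lithium and WT vehicle, and how many of all genes did the same is not given here. Psmb8, the immunoproteasome counterpart of Psmb5, fell by 0.44 on the log2 scale (adjusted p = 0.014). Its value went from 59.9 ± 6.04 to 44.1 ± 9.51 (SD, n = 9 each), beside the lower microglial markers given above. Under fluoxetine it was also lower, without a call, at 48.4 ± 6.64 (SD, n = 9) in WT. In HT the medians were 60.4 under vehicle and 48.4 under fluoxetine. The microglial score averaged 0.037 in WT vehicle and in WT fluoxetine, 0.036 in HT vehicle and 0.007 in HT fluoxetine. The part of microglia in the Psmb8 values was not tested. In HT the difference of Psmb8 under lithium was -0.19 (adjusted p = 0.26). Psmb9 and Psmb10 were not called in either genotype. In the other comparisons 0 of the 33 were called by limma.

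Subunit values also moved together among mice of the same group. After subtraction of the group means, the correlation of a subunit with the mean of the other 30 over 56 libraries had a median of r = 0.68, from 0.04 (Psmc6) to 0.84 (Psmc3), and the means of core and regulatory particle genes correlated at r = 0.80. The median over all genes was -0.004. Psme4 (r = -0.50) and Psme2 (0.01) stood apart from the subunits in this. The 5 genes outside the list most like the subunit mean were Mdh2 (r = 0.86), Cops6 (0.85), Atp6v0c (0.85), Ran (0.84) and Rrp1 (0.83). The same mean correlated with the excitatory neuron score at 0.55, the astrocyte score at -0.58, and the length slope at -0.65. All of these are descriptions over libraries that share their preparation, and the part of tissue composition and length in them was not tested.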

How the data were processed

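Libraries were prepared with the TruSeq Stranded mRNA kit named in the labels' protocols. Per the submitters' processing notes, the tools were Salmon (0.11.2), DESeq2 (1.19.11) and R (3.6.0) with the GRCm38 build; their roles are not given in the sources used here. The deposited table held a signal per gene: reads divided by a size factor of the library by the authors (0.818 to 1.23). In 53 libraries 100% of values gave whole reads at a tolerance of 0.01, and in 3 (HT lithium female 5, HT vehicle male 2 and male 5) the step was too near 1 for this check to apply.

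Symbols were paired with 18077 genes. Members and lists were chosen with earlier results of these data known. Genes with a value of at least 10 in at least 4 libraries were tested (17778). In R 4.3.3, limma 3.58.1 (trend, robust) was fitted to log2(value + 1) with 12 group means and all 56 libraries, since the values were not counts. Effects average the sexes, and p-values were Benjamini-Hochberg adjusted within each of 15 comparisons. On simulated data, folds of 1.1, 1.2 and 1.5 were recovered in 24%, 62% and 98% of 50 genes each for lithium in HT. Named are the catalytic genes, called members (or the smallest p), and the highest and lowest level. Further names in the text illustrate classes and were chosen after their values were seen.

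Alternatives were TMM rescaling, voom, no filter, pseudocounts of 0.5 and 5, only the groups compared, replicate block, tissue scores or length and GC slopes as covariates, leaving out libraries, and edgeR 4.0.16 or DESeq2 1.42.0 on recovered reads with the authors' size factors. Lengths and coordinates are from GENCODE vM21, and upstream windows from RefSeq. All sample columns were used. The p-values measure the spread between mice of a group, whose litters are not given. Results for some genes of the list of 33 are not reported here.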

Additional observations from a re-analysis of the deposited data

Results flagged for a closer look

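In groups of 4 or 5, a library that lay far from the others of its group was searched for in 19 items (the named members and particle means). Of 228 group tests 10 met the criterion, and chance alone gives about 1 in 20.

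Psmb5 in HT fluoxetine female 3 (1817, the others 1660 to 1676), Psma6 in WT vehicle female 1 (1734, the others 1611 to 1645), Psmd10 in HT vehicle female 4 (328, the others 262 to 277) and Psmd4 in HT lithium female 1 (2465, the others 2216 to 2277) were high. Low values were those of Psmb6 in WT fluoxetine female 3 (1699, the others 1836 to 1838) and in WT lithium male 4 (1471, the others 1658 to 1711), of Psmb7 in HT vehicle male 2 (2461, the others 2543 to 2562), and of Psmd13 in HT lithium female 5 (1674, the others 1782 to 1817). WT fluoxetine male 5 was low for Psma7 (1704, the others 2099 to 2236) and for the mean of the core particle genes (-0.127, the others 0.023 to 0.065).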

How the results depend on the processing

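The median change of the members for lithium in HT was -0.047. It became -0.0058 once length and GC slopes entered the fit, ran from -0.059 to -0.037 on leaving out a library, and lay between -0.051 and -0.047 in the other alternatives. Counts of called members that moved were, for lithium in HT (6), 2 without the libraries with high olfactory or striatal scores and 0 with length and GC slopes as covariates; for lithium in WT (0), 1 with only the groups compared, 3 with length and GC slopes and 3 with DESeq2; for lithium against fluoxetine in WT (1), 0 with only the groups compared, without the high-score libraries, with tissue scores or with length and GC slopes; and for lithium against fluoxetine in HT (0), 1 without the high-score libraries and 2 with DESeq2. Leaving out a library gave 3 to 13 for lithium in HT, 0 to 3 for lithium in WT, and 0 to 1 for either drug comparison. The cause of these moves was not tested, and the shares of all genes called under the alternatives are not given here.

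Values of catalytic genes that changed sign were all uncalled. With length and GC slopes as covariates they were, for Psmb5, -0.019 (genotype under vehicle), 0.0039 (genotype under fluoxetine), 0.023 (fluoxetine by genotype) and 0.026 (sex difference of fluoxetine in WT). For Psmb6 they were 0.0091 (fluoxetine in HT), -0.0019 (genotype under vehicle), 0.013 (lithium by genotype), 0.020 (fluoxetine by genotype) and 0.0077 (sex difference of fluoxetine in HT), and for Psmb7 0.0083 (fluoxetine in HT), 0.0046 (fluoxetine by genotype) and 0.028 (lithium against fluoxetine in WT). Without the high-score libraries they were -0.011 (Psmb5, genotype under vehicle), -0.056 (Psmb5, sex difference of lithium in WT), 0.033 (Psmb6, fluoxetine in WT), -0.021 (Psmb6, genotype under fluoxetine), -0.016 (Psmb7, lithium in WT) and 0.0076 (Psmb7, genotype under lithium). Psmb7 for lithium in WT was -0.00014 with TMM. Psmb5 was 0.0041 for genotype under fluoxetine with tissue scores, and for the sex difference of fluoxetine in WT 0.00044 with TMM and 0.0017 with voom.

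Leaving out a library, Psmb5 ran from -0.0041 to 0.035 (genotype under vehicle), -0.035 to 0.024 (genotype under fluoxetine), -0.053 to 0.0063 (fluoxetine by genotype) and -0.065 to 0.052 (sex difference of fluoxetine in WT). Psmb6 ran from -0.015 to 0.032 (fluoxetine in WT), -0.028 to 0.040 (genotype under fluoxetine) and -0.011 to 0.026 (genotype under lithium). Psmb7 ran from -0.0026 to 0.020 (lithium in WT), -0.020 to 0.0037 (fluoxetine in HT), -0.021 to 0.0012 (lithium against fluoxetine in WT) and -0.033 to 0.0095 (sex difference of lithium in HT).

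Libraries with the same replicate number were no closer to each other than others (median correlation -0.002 over 292 pairs). Closest to their own number were 9 of 56 libraries. The numbers thus gave no sign of pairing samples, but shared dams or litters could follow another order, which this check cannot see. The numbers are those of the sample titles, and some library names of WT fluoxetine females and WT lithium females carry other numbers. With the replicate block 6 members were called for lithium in HT, 0 for lithium in WT and 1 for lithium against fluoxetine in WT. On recovered reads edgeR called 6 members for lithium in HT and DESeq2 called 8. In the simulation, 24% of genes changed at a fold of 1.1 were recovered for lithium in HT. It called 150 genes, against 1560 in the data, so its cut on the unadjusted p was stricter. The share that would be recovered among the members was not tested.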
